A study of Mus musculus with 2 samples.

Results

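The 40 genes described here encode enzymes that break down amino acids in the liver. They were taken as a named set by symbol: 13 act on the aromatic amino acids, 10 on the branched-chain amino acids, 16 on amino acids whose carbon enters gluconeogenesis (glucogenic), and 1, Aass, on lysine. All 40 symbols were found among 52636 gene rows. A count of at least 20 summed over both libraries was reached by 39 of them, and by 14433 of all genes.

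RNA sequencing was performed on whole livers of C57BL/6 mice at 8 weeks of age on normal chow, and RNA of 4 mice was pooled into 1 library per genotype. The library labelled HKO came from Mettl3 flox/flox mice with Alb-Cre+/-, in which the albumin promoter drives Cre recombinase in hepatocytes, so that other liver cells keep the gene. The library labelled flox came from Mettl3 flox/flox mice without Cre. Mettl3 is the catalytic subunit of the complex that writes N6-methyladenosine (m6A) on RNA. With 1 pool per genotype there was no replicate check and no test between genotypes could be made, so each difference below is a difference between 2 libraries.

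The genes received 18438807 counts in the library labelled HKO and 21457504 in the library labelled flox. Mettl3 (ENSMUSG00000022160, chromosome 14, 52294841 to 52305128, minus strand, GRCm38) had 220 counts in the library labelled HKO and 156 in the library labelled flox. That is a log2 ratio of 0.45 with a 95% counting interval of 0.15 to 0.75, which runs against the HKO label, and the label names are therefore kept throughout. The count covers the whole gene, and reads from exons outside the floxed part and from cells other than hepatocytes enter it too, so it is a weak check of the deletion. Every log2 ratio is the library labelled HKO over the library labelled flox after scaling by trimmed-mean (TMM) factors, so a negative value means lower in the library labelled HKO. The counting interval is an exact binomial interval and covers the error of counting reads only, not the variation between mice.

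The liver is the main site of breakdown for most amino acids. Aminotransferases pass the amino group to 2-oxoglutarate, glutamate dehydrogenase releases it as ammonia for the urea cycle, and the carbon skeletons are oxidised, turned into glucose or turned into ketone bodies. The aromatic pathways run largely in the cytosol of hepatocytes, and tyrosine and tryptophan breakdown are known to rise with glucocorticoids and glucagon. The branched-chain pathway lies in mitochondria, and its first transamination is known to take place mostly outside the liver.

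The enzyme genes were for the most part lower in the library labelled HKO, by modest amounts. Together they held 272796 counts there, or 1.48% of its counts (Clopper-Pearson 95% interval 1.474 to 1.485%), and 416925 counts, or 1.94% (1.937 to 1.949%), in the library labelled flox. The summed log2 ratio was −0.66 (−0.67 to −0.65). The median log2 ratio of the 39 genes was −0.57, with quartiles of −0.70 and −0.14, against a median of 0.01 over all 14433 genes. In whole liver, fewer hepatocytes and less RNA per hepatocyte cannot be told apart.

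A gene is called past 2-fold here when its log2 ratio is at least 1 in size and its counting interval excludes equality, and past 1.5-fold by the same rule at that fold. Of the 39 genes, 2 were past 2-fold lower, Sds and Haao, where 4.66% of all genes were. None was past 2-fold higher, where 5.74% of all genes were. Past 1.5-fold, 18 of the 39 were lower, where 10.3% of all genes were, and 1 was higher, Acmsd, where 13.0% of all genes were. The counting interval lay wholly below equality for 32 of the 39, which held for 27.7% of all genes, and wholly above it for 3, Acmsd, Amt and Ido2, which held for 28.3% of all genes. It included equality for 4, Bckdhb, Dbt, Pcca and Sdsl. The width of the interval depends on the counts. Of all genes, 6246 had at least as many summed counts as the scarcest of the 39. The interval lay wholly below equality for 2665 of those 6246 genes and wholly above it for 1975. With scaling by total counts, every log2 ratio was 0.27 higher and the median of all genes stood at 0.28. On that scale no enzyme gene was past 2-fold lower, Acmsd was past 2-fold higher, and 7 were past 1.5-fold lower, where 5.20% of all genes were. These 7 were the aromatic genes Haao, Hpd and Afmid, the glucogenic genes Sds, Prodh2 and Got1, and the branched-chain gene Pccb. The share of all genes past 2-fold was not counted on that scale, and 24.8% of all genes were past 1.5-fold higher.

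**Figure D1:**
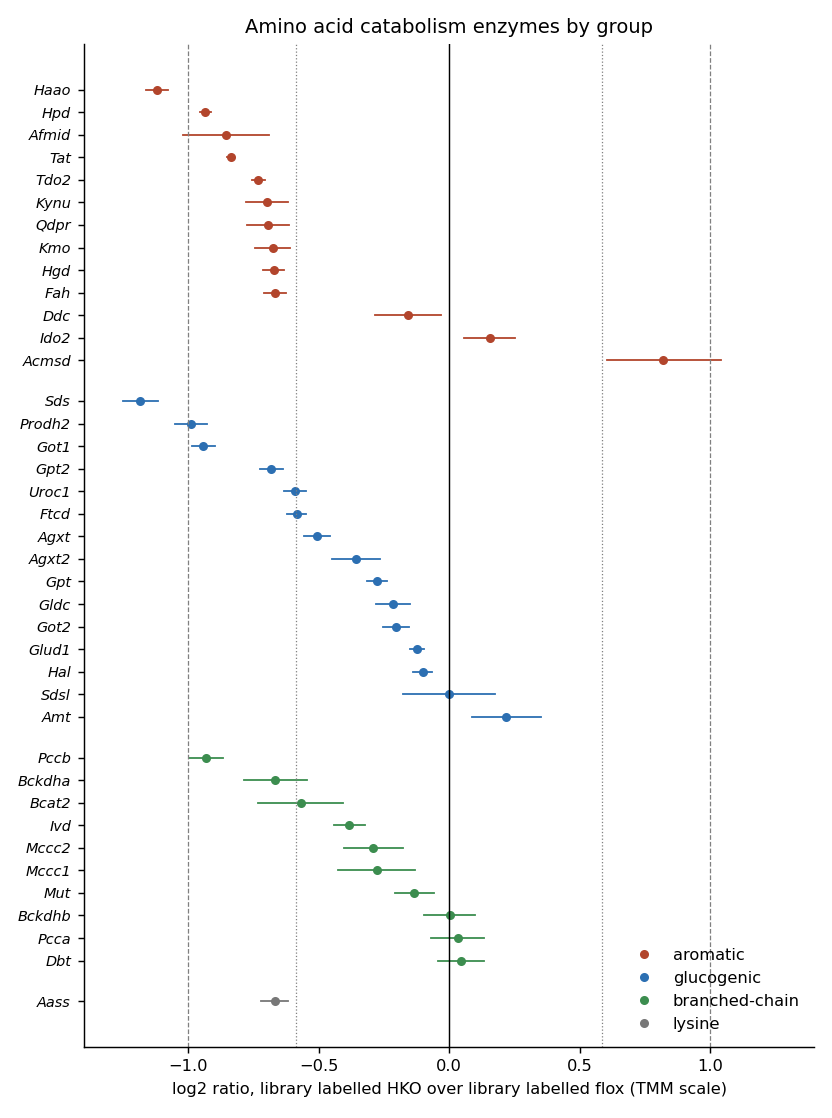
Log2 ratio of the library labelled HKO over the library labelled flox (x axis) for each of the 39 enzyme genes with at least 20 counts, by group, with the 95% counting interval as a bar, dashed lines at 2-fold and dotted lines at 1.5-fold. Most points lie left of 0, Sds at −1.18 and Haao at −1.12 lie furthest left, and Acmsd at 0.82 lies furthest right.

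In the breakdown of phenylalanine and tyrosine all 5 genes were past 1.5-fold lower in the library labelled HKO, with log2 ratios from −0.93 to −0.67. With total counts the log2 ratios ran from −0.67 to −0.40, and only Hpd stayed past 1.5-fold lower. Tat, tyrosine aminotransferase, which opens the pathway (ENSMUSG00000001670, chromosome 8, 109990437 to 109999803, plus strand), had 65407 counts in the library labelled HKO and 112975 in the library labelled flox. It was 1.79-fold lower (1.77 to 1.80), and it was the most abundant of the set, with 24.0% of the set's counts in the library labelled HKO and 27.1% in the library labelled flox. Hpd, hydroxyphenylpyruvate dioxygenase, which carries out the next step (chromosome 5, 123171807 to 123182727, minus strand), had 29167 counts in the library labelled HKO and 53903 in the library labelled flox. Its level was 1.91-fold lower (1.88 to 1.94), and the gene lies within the span of others but shares no exonic base with them.

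The later steps differed by nearly equal amounts. Hgd, which opens the ring of homogentisate, had 8154 counts in the library labelled HKO and 12563 in the library labelled flox, 1.59-fold lower (1.55 to 1.64). Fah, fumarylacetoacetate hydrolase, the last enzyme, had 7633 counts in the library labelled HKO and 11729 in the library labelled flox, also 1.59-fold lower (1.54 to 1.64). Qdpr regenerates tetrahydrobiopterin, a cofactor of aromatic amino acid hydroxylation. It had 2124 counts in the library labelled HKO and 3323 in the library labelled flox, 1.62-fold lower (1.53 to 1.71), and 18.6% of its exonic bases overlap Gm42413 on the other strand.

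In tryptophan breakdown 5 of 7 genes were past 1.5-fold lower and 1 was past 1.5-fold higher. With total counts only Haao and Afmid stayed past 1.5-fold lower, and Acmsd stayed past 1.5-fold higher. Tdo2, tryptophan dioxygenase, the first enzyme in hepatocytes, had 22215 counts in the library labelled HKO and 35665 in the library labelled flox, 1.66-fold lower (1.63 to 1.69). Ido2, which catalyses the same first reaction, did not share that direction, with 1876 counts in the library labelled HKO and 1629 in the library labelled flox, a log2 ratio of 0.16 (0.06 to 0.25). The genes of the kynurenine steps that follow were lower again. Kmo, the mitochondrial kynurenine monooxygenase, had 2936 counts in the library labelled HKO and 4536 in the library labelled flox, 1.60-fold lower (1.52 to 1.67). Kynu, kynureninase, had 2039 counts in the library labelled HKO and 3200 in the library labelled flox, 1.62-fold lower (1.53 to 1.72). Afmid, the formamidase between Tdo2 and Kmo, had 485 counts in the library labelled HKO and 848 in the library labelled flox, 1.81-fold lower (1.61 to 2.03). Its value is uncertain, because 46.6% of its exonic bases lie in other annotated genes, Tk1 and the transcript Gm20708, and 37.4% of its 100-base words occur in another gene.

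The end of the kynurenine pathway held the largest contrast of the aromatic group. Haao, hydroxyanthranilate dioxygenase, forms the precursor of quinolinate and so of NAD (ENSMUSG00000000673, chromosome 17, 83831156 to 83847963, minus strand). It had 7263 counts in the library labelled HKO and 15256 in the library labelled flox, 2.17-fold lower (2.11 to 2.23). Acmsd, the decarboxylase that diverts the product of Haao away from NAD synthesis (chromosome 1, 127729413 to 127767978, plus strand), had 493 counts in the library labelled HKO and 270 in the library labelled flox. It was 1.76-fold higher (1.52 to 2.06), with a log2 ratio of 0.82, and 80.3% of its exonic bases lie in the span of an antisense gene, 3.32% in its exons. These 2 neighbouring enzymes of the pathway thus stood at opposite ends of the aromatic group. Ddc, the decarboxylase of aromatic amino acids, had 1006 counts in the library labelled HKO and 1085 in the library labelled flox, a log2 ratio of −0.16 (−0.28 to −0.03) that turns positive with total counts.

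In the glucogenic group 5 of 15 genes were past 1.5-fold lower, and log2 ratios ran from −1.18 to 0.22. Sds, serine dehydratase, which turns serine into pyruvate (ENSMUSG00000029597, chromosome 5, 120476526 to 120483932, plus strand), was the lowest of all 39. It had 2669 counts in the library labelled HKO and 5862 in the library labelled flox, 2.27-fold lower (2.17 to 2.38). Of its exonic bases 29.6% overlap Plbd2 or Gm15690 on the other strand and may have been counted without regard to strand, which the sources do not give. Its relative Sdsl lies 3715 bases away on the minus strand (120458186 to 120472810) and had 537 counts in the library labelled HKO and 520 in the library labelled flox. The log2 ratio of Sdsl was −0.00 (−0.18 to 0.18) on the TMM scale and 0.27 with total counts, so whether it differed depends on the scaling.

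The glycine cleavage system breaks glycine down in mitochondria. Gldc, the glycine decarboxylase, had 3683 counts in the library labelled HKO and 4131 in the library labelled flox, a log2 ratio of −0.21 that turns positive with total counts. Amt, the aminomethyltransferase of the same system, had 1026 counts in the library labelled HKO and 852 in the library labelled flox, a log2 ratio of 0.22 (0.09 to 0.35), the only positive one among the glucogenic genes on the TMM scale. Both Agxt, which clears glyoxylate with alanine as amino donor, and its mitochondrial relative Agxt2 were lower. Agxt had 5558 counts in the library labelled HKO and 7628 in the library labelled flox, 1.42-fold lower (1.37 to 1.47), and Agxt2 had 1730 in the library labelled HKO and 2141 in the library labelled flox, 1.28-fold lower (1.20 to 1.36).

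Prodh2, hydroxyproline dehydrogenase (chromosome 7, 30493622 to 30513402, plus strand), stood just inside the limit of 2-fold. It had 3177 counts in the library labelled HKO and 6096 in the library labelled flox, 1.98-fold lower (1.90 to 2.07). Prodh, proline dehydrogenase, had 0 counts in both libraries, which allows up to 3 counts, or 0.163 CPM, counts scaled to the library total, in the library labelled HKO and 0.140 in the library labelled flox. It is the only one of the 40 without a value.

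Among the enzymes that handle alanine, aspartate and glutamate, the cytosolic aspartate aminotransferase Got1 stood lowest. It had 6883 counts in the library labelled HKO and 12782 in the library labelled flox, 1.92-fold lower (1.86 to 1.98). The mitochondrial form Got2 had 6102 counts in the library labelled HKO and 6793 in the library labelled flox, a log2 ratio of −0.20 (−0.25 to −0.15) that turns positive with total counts, and 14.1% of its 100-base words occur in other loci, 1 of them its pseudogene Got2-ps1. Alanine aminotransferase also has a cytosolic form, Gpt, and a mitochondrial form, Gpt2. Here the mitochondrial form was the lower one: Gpt2 had 6901 counts in the library labelled HKO and 10706 in the library labelled flox, 1.60-fold lower (1.56 to 1.65). Gpt had 9324 counts in the library labelled HKO and 10921 in the library labelled flox, 1.21-fold lower (1.18 to 1.24). Glud1, glutamate dehydrogenase, where the amino groups converge, had 20572 counts in the library labelled HKO and 21671 in the library labelled flox, a log2 ratio of −0.12 (−0.15 to −0.10) that turns positive with total counts.

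The 3 genes of histidine breakdown act in sequence up to the release of glutamate, with Hal first and Ftcd last. Hal, histidine ammonia-lyase, had 11584 counts in the library labelled HKO and 12021 in the library labelled flox, a log2 ratio of −0.10 (−0.14 to −0.06) that turns positive with total counts. Uroc1, urocanate hydratase, had 7970 counts in the library labelled HKO and 11613 in the library labelled flox, 1.51-fold lower (1.46 to 1.55). Ftcd, which passes the formimino group to folate, had 10436 counts in the library labelled HKO and 15133 in the library labelled flox. At 1.499-fold lower (1.46 to 1.54, log2 ratio −0.58) it fell just short of the 1.5-fold limit that Uroc1 (log2 ratio −0.59) just passed.

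The branched-chain group differed least, with 2 of 10 genes past 1.5-fold lower. Bcat2, the branched-chain aminotransferase, had 521 counts in the library labelled HKO and 747 in the library labelled flox, 1.48-fold lower (1.32 to 1.66), and 16.0% of its exonic bases overlap 0610005C13Rik on the other strand. The dehydrogenase complex that commits the keto acids to oxidation had 1 subunit apart from the others. Bckdha, its alpha decarboxylase subunit, had 920 counts in the library labelled HKO and 1412 in the library labelled flox, 1.59-fold lower (1.46 to 1.73). That value is uncertain, because 61.7% of its exonic bases overlap B3gnt8. Bckdhb, the beta subunit, had 1702 counts in the library labelled HKO and 1644 in the library labelled flox, a log2 ratio of 0.00 (−0.10 to 0.10). Dbt, the acyltransferase core, had 2196 counts in the library labelled HKO and 2057 in the library labelled flox, a log2 ratio of 0.05 (−0.04 to 0.13). Neither difference exceeded the counting error on the TMM scale. With total counts the log2 ratios were 0.27 for Bckdhb and 0.31 for Dbt, beyond their counting error, and with upper-quartile factors both turn negative.

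The genes of leucine oxidation were lower by small amounts. Ivd, isovaleryl-CoA dehydrogenase, had 4209 counts in the library labelled HKO and 5304 in the library labelled flox, 1.30-fold lower (1.25 to 1.36). Mccc1 and Mccc2 encode the subunits of methylcrotonyl-CoA carboxylase. Mccc1 had 701 counts in the library labelled HKO and 822 in the library labelled flox, 1.21-fold lower (1.09 to 1.34). Of the exonic bases of Mccc1 97.4% lie in the span of other genes, 5.60% in their exons. Mccc2 had 1159 counts in the library labelled HKO and 1371 in the library labelled flox, 1.22-fold lower (1.13 to 1.32).

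In the propionyl-CoA steps shared by valine and isoleucine, the carboxylase subunits were far apart. Pccb, the beta subunit (ENSMUSG00000032527, chromosome 9, 100982032 to 101034898, minus strand), had 3013 counts in the library labelled HKO and 5555 in the library labelled flox, 1.91-fold lower (1.82 to 1.99). Pcca, the biotin-carrying alpha subunit, had 1596 counts in the library labelled HKO and 1509 in the library labelled flox, a log2 ratio of 0.03 (−0.07 to 0.14) that is 0.30 with total counts and turns negative with upper-quartile factors. Of the exonic bases of Pcca 46.5% lie in the span of other genes, 4.63% in their exons. Mut, methylmalonyl-CoA mutase, had 2893 counts in the library labelled HKO and 3068 in the library labelled flox, a log2 ratio of −0.13 (−0.21 to −0.06) that turns positive with total counts.

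Aass, the first enzyme of lysine breakdown, had 4936 counts in the library labelled HKO and 7584 in the library labelled flox. It was 1.59-fold lower (1.53 to 1.65), close to the median of the aromatic genes.

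**Figure D2:**
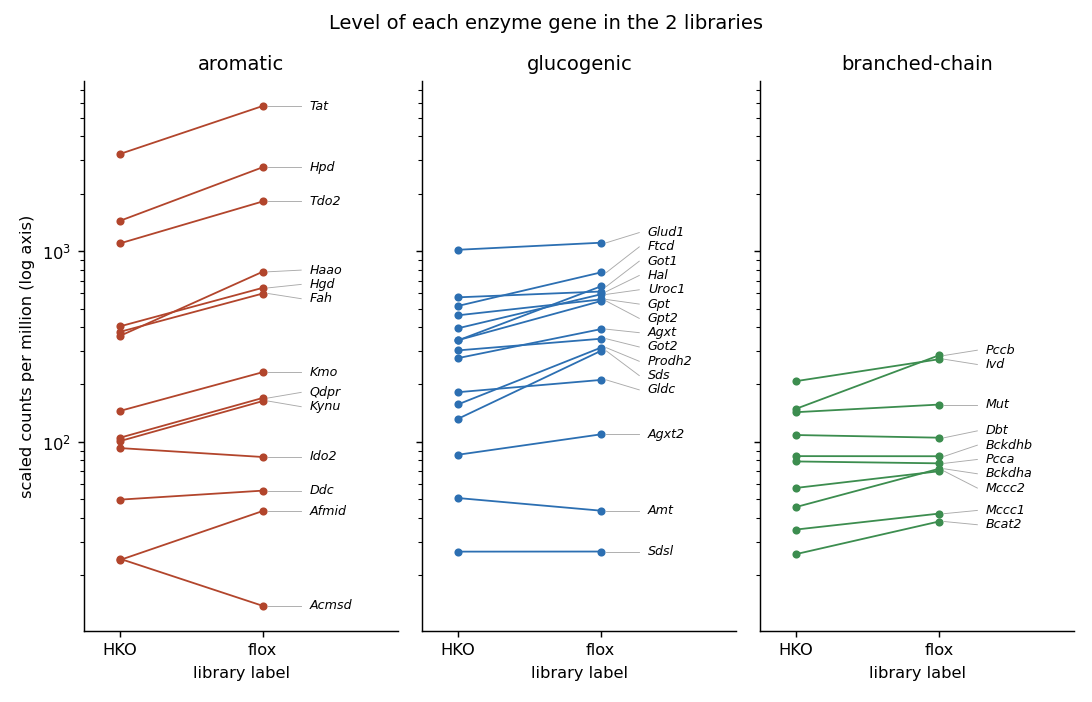
Scaled CPM (y axis, log scale) of each aromatic, glucogenic and branched-chain gene in the library labelled HKO (left) and the library labelled flox (right), 1 line per gene. Tat runs at the top, at 3234 in the library labelled HKO and 5775 in the library labelled flox, and Acmsd, at 24.4 in the library labelled HKO and 13.8 in the library labelled flox, is the one line in the aromatic panel that falls clearly to the right.

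Compared as groups, the aromatic genes had a median log2 ratio of −0.69, the glucogenic genes −0.36 and the branched-chain genes −0.28. The aromatic median lay 0.41 below the branched-chain median, a difference that scaling cannot move, whereas the glucogenic median lay only 0.07 below it. The summed counts followed the same order. The aromatic genes held 150798 counts in the library labelled HKO and 256982 in the library labelled flox, a log2 ratio of −0.82 (−0.83 to −0.81), and Tat and Hpd made up most of both sums. For the glucogenic genes the sums were 98152 counts in the library labelled HKO and 128870 in the library labelled flox, a log2 ratio of −0.44 (−0.45 to −0.43). For the branched-chain genes they were 18910 counts in the library labelled HKO and 23489 in the library labelled flox, a log2 ratio of −0.36 (−0.39 to −0.33). The groups overlapped: Pccb and Bckdha were about as low as or lower than the typical aromatic gene, and Ddc, Ido2 and Acmsd were higher than the branched-chain median.

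Enzymes of like reaction and subunits of 1 complex often differed unequally, and 10 pairs were compared. The difference of 2 log2 ratios does not depend on the scaling, and its 95% interval, here a normal approximation, again covers counting error only. Sds lay 1.18 below Sdsl (interval of the difference −1.37 to −0.995). In TPM, a unit corrected for gene length that allows genes to be compared within a library, Sds stood 4.39 times as high as Sdsl in the library labelled HKO and 9.96 times as high in the library labelled flox. Tdo2 lay 0.89 below Ido2 (−0.99 to −0.79), and Got1 lay 0.74 below Got2 (−0.80 to −0.67). For alanine aminotransferase the cytosolic form was the higher one, with Gpt 0.41 above Gpt2 (0.35 to 0.46), and Agxt lay 0.15 below Agxt2 (−0.25 to −0.05).

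Subunits of the carboxylases and the dehydrogenase gave both kinds of result. Pccb lay 0.96 below Pcca (−1.08 to −0.84), and the Pccb level was 3.55 times that of Pcca in TPM in the library labelled HKO and 6.92 times in the library labelled flox. Mccc2 and Mccc1 did not differ beyond counting error, at −0.01 (−0.20 to 0.17). Bckdha lay 0.67 below Bckdhb (−0.82 to −0.51) and 0.71 below Dbt (−0.86 to −0.56), with the overlap of Bckdha and B3gnt8 as its limit. Bckdhb and Dbt did not differ beyond counting error, at −0.04 (−0.18 to 0.09).

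**Figure D3:**
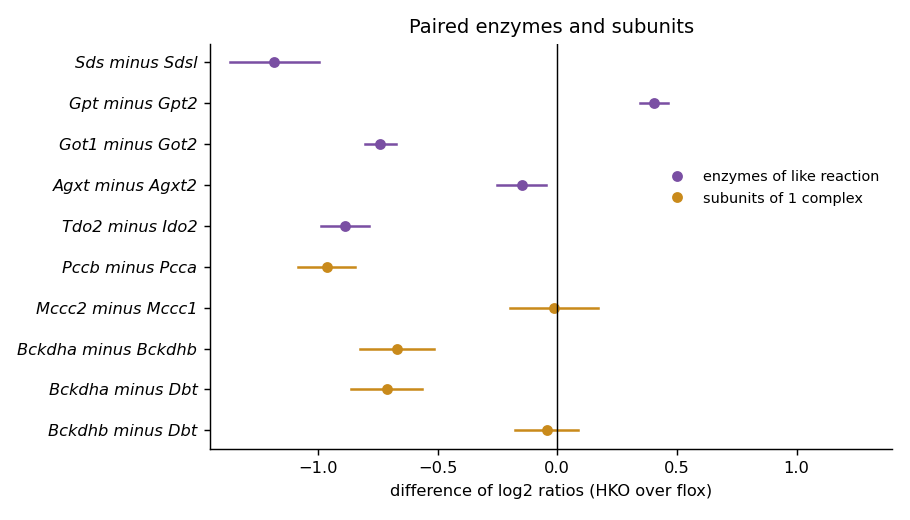
Difference of the log2 ratios (HKO over flox, x axis) between paired enzyme genes, with the 95% interval of the difference, a normal approximation from the counts. The interval includes 0 for Mccc2 minus Mccc1 and for Bckdhb minus Dbt, and Gpt minus Gpt2 is the one pair to the right of 0.

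Compartment ran alongside the groups. The 19 cytosolic enzymes had a median log2 ratio of −0.67 with 12 past 1.5-fold lower, and the 19 mitochondrial enzymes with enough counts had a median of −0.29 with 6 past 1.5-fold lower. Since 12 of 13 aromatic enzymes are cytosolic and all 10 branched-chain enzymes mitochondrial, compartment and group cannot be told apart over the whole set. Within the glucogenic group, 7 cytosolic enzymes had a median of −0.58 with 3 past 1.5-fold lower, and 7 mitochondrial ones had a median of −0.21 with 2 past that limit. The cytosolic ones had a median of 19665 summed counts and the mitochondrial ones 9273, so compartment and abundance are not separated there. The 13 enzymes that use pyridoxal phosphate had a median of −0.50, and 5 of them were past 1.5-fold lower. The 4 biotin carboxylase subunits had a median of −0.28.

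Abundance moved with the differences as well. All 39 genes held at least 763 counts summed, and over the 6246 genes at or above that level the median log2 ratio was −0.06. The 534 genes with at least 10000 summed counts had a median of −0.34, and 30.7% of them were past 1.5-fold lower. The 16 enzyme genes of that class had a median of −0.67, and 10 of them were past 1.5-fold lower. Among the 4779 genes with 1000 to 10000 counts the median was −0.05 with 7.97% past 1.5-fold lower, and the 22 enzyme genes of that class had a median of −0.32 with 8 past that limit. Acmsd alone lay below 1000 counts. Across the 39 genes the log2 of summed counts and the log2 ratio had a Spearman rho of −0.44 and a Pearson r of −0.50, given as a description, since the points share the same libraries and the same counts. The median summed count was 7472 for the aromatic, 13186 for the glucogenic and 3226 for the branched-chain genes. Whether abundance bears on the differences between the groups was not tested.

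**Figure D4:**
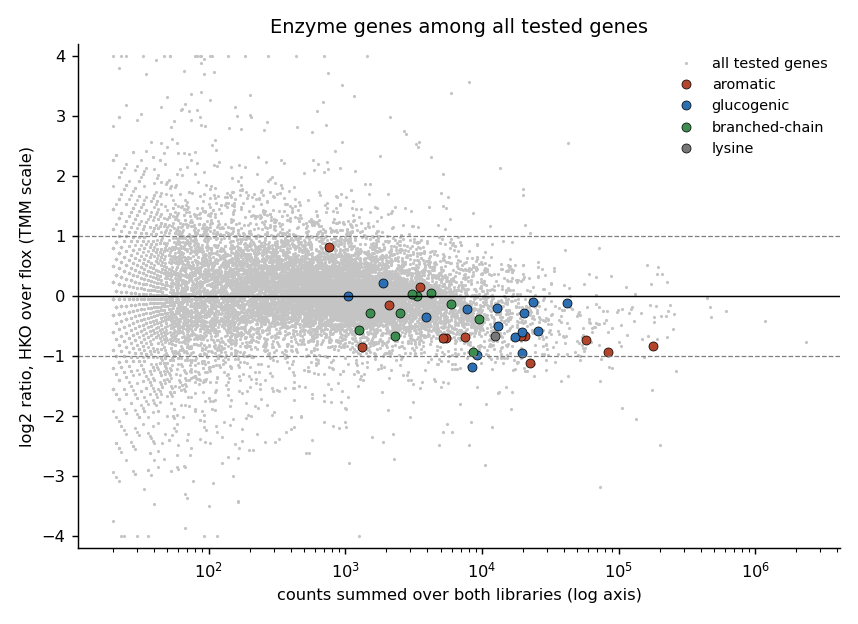
Log2 ratio of the library labelled HKO over the library labelled flox (y axis, values beyond 4 in size drawn at 4, dashed lines at 2-fold) against summed counts (x axis, log scale) for all 14433 genes in grey and the 39 enzyme genes in colour by group. The enzyme genes lie from the centre to the right of the plot and mostly below 0, and grey points at the same counts spread to both sides of them.

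The sequences before the start sites of 2 enzyme genes are shown for the low and the high side of the set. Only genes with at least 1000 summed counts were considered, which leaves out Acmsd. Sds has no entry in the RefSeq promoter table and the Haao window lies inside an annotated exon, so neither is printed. The genes shown are Prodh2, 1.98-fold lower, and Amt, 1.16-fold higher. Both are on GRCm38.p6 from the RefSeq promoter table, plus strand, Prodh2 at chr7:30493408-30493621 and Amt at chr9:108296655-108296852, and both end where the first annotated exon begins. Capitals mark a match to the C/EBP motif TTGCNNAA on either strand.
Prodh2: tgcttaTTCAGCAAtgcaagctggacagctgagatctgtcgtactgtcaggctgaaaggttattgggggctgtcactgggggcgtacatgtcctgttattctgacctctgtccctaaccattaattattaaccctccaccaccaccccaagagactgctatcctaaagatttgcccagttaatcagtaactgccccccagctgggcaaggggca
Amt: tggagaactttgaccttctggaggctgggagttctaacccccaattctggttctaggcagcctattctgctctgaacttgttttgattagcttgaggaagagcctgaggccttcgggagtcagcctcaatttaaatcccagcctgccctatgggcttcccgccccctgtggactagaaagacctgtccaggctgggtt

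C/EBP factors, the cAMP-responsive element binding protein CREB, HNF4 and the glucocorticoid receptor are known regulators of amino acid breakdown in liver. Windows from 250 bases before to 50 bases after the start were found for 33 of the 40 genes, 38 windows in all, and were set beside all 32851 windows of the table. The C/EBP letters TTGCNNAA were in 7 member windows (18.4%), those of Aass, Agxt2, Ddc, Hal, Hgd, Prodh2 and Qdpr, and in 10.8% of all windows. The glucocorticoid receptor letters ACANNNTGT were in 5 member windows (13.2%), those of Bckdhb, Ddc, Hal, Ivd and Tdo2, and in 6.85% of all windows. The HNF4 letters CAAAGTCCA were in 2 windows, both of Agxt2, and in 0.475% of all windows. The CRE letters TGACGTCA were in 0 of the 38 and in 1.79% of all windows. Both strands were searched and matches of different motifs may overlap. Of the 16 windows of genes past 1.5-fold lower, 4 held the C/EBP letters and 1 the glucocorticoid receptor letters. Of the windows of the other genes, 3 held the C/EBP letters and 4 the glucocorticoid receptor letters.

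GGACT, a common core of the m6A consensus, was counted in the longest coding transcript of each gene. The 39 genes had a median of 1.03 per kb, against 1.05 over 12678 coding genes. It was absent from 3 of the 39, Haao, Sds and Sdsl (7.69%), and from 7.01% of all coding genes. Their log2 ratios were −1.12 for Haao, −1.18 for Sds and −0.00 for Sdsl. Across the 39 genes its density and the log2 ratio had a Spearman rho of 0.15, and across the 12678 coding genes a rho of −0.02, both given as descriptions over points that share both libraries.

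Further enzymes of these pathways and of the sulphur amino acids, 69 outside the set, were read from lists by pathway, and 65 had enough counts. Of these, 4 were past 2-fold lower, where 4.66% of all genes were, and 1 was past 2-fold higher, where 5.74% were. Past 1.5-fold, 20 were lower, where 10.3% of all genes were, and 2 were higher, where 13.0% were. The median log2 ratio of the 65 was −0.38. In the aromatic pathways 1 of 12 was past 2-fold lower: Gch1, GTP cyclohydrolase, the first enzyme of tetrahydrobiopterin synthesis, had 1514 counts in the library labelled HKO and 3223 in the library labelled flox, 2.20-fold lower (2.07 to 2.34). Qprt, which takes quinolinate into NAD synthesis, was the highest of that list, with 6055 counts in the library labelled HKO and 4435 in the library labelled flox, a log2 ratio of 0.40. Around the branched-chain pathway none of 17 was past 2-fold, the median was −0.19, and values ran from −0.72 for Hsd17b10, an isoleucine enzyme, to 0.35 for Dld, the dehydrogenase subunit shared with other keto acid complexes. Among 17 further glucogenic genes, whose median was −0.58, Oat, ornithine aminotransferase, had 4807 counts in the library labelled HKO and 9445 in the library labelled flox, 2.03-fold lower (1.96 to 2.10). Asns, which makes asparagine and so runs in the direction of synthesis, had 129 counts in the library labelled HKO and 62 in the library labelled flox, 2.004-fold higher (1.48 to 2.77). Of 8 further lysine genes none was past 2-fold, with log2 ratios from −0.65 for Aldh7a1 to −0.04 for Dlst. Total counts left 1 of the 4 lower genes past 2-fold.

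Markers of other liver cells differed between the libraries, and their part in the ratios of the enzyme genes was not tested. Of 11 hepatocyte markers 10 had intervals below equality, where 27.7% of all genes did. The median log2 ratio was −0.34 and the lowest −0.77, for Alb. Past 1.5-fold, 4 were lower, where 10.3% of all genes were. All 11 had at least 10000 summed counts. The 534 genes of that abundance had a median of −0.34, and 30.7% of them were past 1.5-fold lower. The summed scaled CPM of the 11 was 95504 in the library labelled HKO and 135980 in the library labelled flox, a log2 ratio of −0.51. Alb alone held 43822 (HKO) and 74634 (flox) of these sums. All marker values are on the TMM scale, and with total counts each log2 ratio is 0.27 higher. All 12 Kupffer cell markers had intervals above equality, 3 of them past 2-fold higher, with summed scaled CPM of 823 in the library labelled HKO and 560 in the library labelled flox. All 9 markers of monocyte-derived macrophages were likewise above, 6 past 2-fold higher, with 172 in the library labelled HKO and 91.7 in the library labelled flox. Of all genes, 28.3% had intervals above equality and 5.74% were past 2-fold higher. Further lists are given in the same unit. Sinusoidal endothelium summed to 365 in the library labelled HKO and 446 in the library labelled flox. Stellate cells summed to 355 (HKO) and 272 (flox), and bile duct to 66.5 (HKO) and 76.0 (flox). Log2 ratios ran from −1.26 to 1.09 in the stellate list and from −2.19 to 2.05 in the bile duct list. The markers of each of these lists thus went both ways, which the sums do not show. For blood and lymphoid lists, B and plasma cells summed to 10.1 (HKO) and 6.90 (flox), T and NK cells to 2.42 (HKO) and 1.18 (flox), and neutrophils to 4.01 (HKO) and 2.91 (flox). Ly6g was at 0 in both libraries.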

How the data were processed

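The deposited values are raw read counts per gene, made by the authors. The submitters' processing notes name TopHat2, GRCm38 and HTSeq 0.6.1, and the study's methods name another aligner for this step. Which of them made the files is not given in the sources used here, nor is the strand setting. PCR copies count as reads. Of 52947 rows, 311 unannotated loci (0.261% of counts in the library labelled HKO, 0.328% in the library labelled flox) were left out.

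Identifiers were matched to GENCODE M21 (52489 of 52636). Counts were scaled with TMM factors from edgeR 4.0.16 (R 4.3.3), which together with DESeq2 1.42.0 served for scaling factors only. A prior of 0.5 counts was added for log2 and fold values, and the 95% interval came from the exact binomial distribution of 1 library's share. For the pairs, the difference and its 95% interval, a normal (Wald) approximation, were taken from the counts of both genes without the prior. TPM used the union of exons and is set within 1 library. Shared sequence is the share of 100-base words found in another gene. The steps were tested on simulated data. The members, their groups and the gene lists were chosen with earlier results of these data known. All members are named, and of other genes Mettl3, every listed pathway gene past 2-fold and the lowest and highest of each pathway list. Marker lists are given by counts and sums, and not every marker or marker list is printed. The marker gene at 0 was named after its values were seen. Alternatives covered scaling, count floor, prior, gene type, fold limit and shared sequence. Calculations used Python 3.11.15, NumPy 2.4.6, pandas 2.3.3, SciPy 1.17.1 and matplotlib 3.10.9.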

Additional observations from a re-analysis of the deposited data

How the results depend on the processing

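With total counts, 0 of the 39 enzyme genes were past 2-fold lower and 1 past 2-fold higher, 7 were past 1.5-fold lower, and the medians were −0.43 for aromatic, −0.017 for branched-chain, −0.089 for glucogenic and −0.30 for all enzyme genes, beside an all-gene median of 0.28. Of the other pathway enzymes 1 was then past 2-fold lower. With total counts 26 of 39 ratios were below 0, against 33 with TMM factors, and 24.8% of all genes were past 1.5-fold higher. Upper-quartile factors moved every ratio by −0.08, to an all-gene median of −0.07. On that scale 6 enzyme genes were past 2-fold lower. The share of all genes past 2-fold was counted neither on that scale nor with total counts, so these 2-fold counts have no background beside them. Past 1.5-fold, 20 enzyme genes were lower, where 12.55% of all genes were. The medians were −0.77, −0.36, −0.43 and −0.64 in the order given for total counts. Of the other pathway enzymes 7 were past 2-fold lower and 0 higher, again without a share of all genes beside them. DESeq2 size factors moved ratios by 0.03. The count of other pathway enzymes past 2-fold higher was also 0 with a prior of 2 counts and with protein-coding genes only. At a limit of 1.5-fold the counts were 18 lower and 1 higher for the enzyme genes and 20 lower and 2 higher for the other pathway enzymes. Leaving out 12 members that share sequence or lie in other genes left 27, of which 1 was past 2-fold lower and 0 past 1.5-fold higher. Sds and Acmsd were among those left out, and 1 other pathway enzyme was then past 2-fold lower. The counts at the 1.5-fold limit were added after seeing the data. The difference between the aromatic and branched-chain medians cannot move with scaling, and without the 12 members it was −0.40. No paired analysis was possible because each genotype has 1 library. The median half-width of the counting interval was 0.06 in log2 units, so depth limits few of these ratios, and the number of libraries limits all of them.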

Other observations

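Enzymes of the sulphur amino acids lie beside the pathways described above. Of 13 with enough counts, 2 were past 2-fold lower in the library labelled HKO, where 4.66% of all genes were. The median log2 ratio of the 13 was −0.36. Gnmt, glycine N-methyltransferase, which consumes S-adenosylmethionine, had 20290 counts in the library labelled HKO and 52409 in the library labelled flox, 2.67-fold lower. Ahcy, which hydrolyses S-adenosylhomocysteine, had 26622 counts in the library labelled HKO and 58140 in the library labelled flox, 2.26-fold lower, and 63.6% of its 100-base words occur in other loci. Csad, an enzyme of taurine synthesis, stood at the other end with 9781 counts in the library labelled HKO and 7894 in the library labelled flox, a log2 ratio of 0.26.

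Of 13 known regulators of amino acid breakdown none was past 2-fold, where 4.66% of all genes were lower and 5.74% higher. Past 1.5-fold, 4 were lower, Klf15, Hnf4a, Ppara and Gcgr, where 10.3% of all genes were. With total counts each log2 ratio is 0.27 higher, and none of the 4 stays past 1.5-fold. Klf15, a transcription factor that induces amino acid catabolic genes, had 4442 counts in the library labelled HKO and 7526 in the library labelled flox, 1.75-fold lower (1.69 to 1.82). Foxo1, a transcription factor restrained by insulin, was the highest of the list, with 1574 counts in the library labelled HKO and 1046 in the library labelled flox, a log2 ratio of 0.54. The median of the list was −0.24. Whether the levels of these regulators bear on those of the enzymes was not tested.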
